A study of Mus musculus with 2 samples.

Results

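Ifi44, Iigp1 and Gvin1 are 3 genes that interferons switch on in mouse cells. They were chosen by their gene symbols in the authors' deposited table of probe sets that differed at least 2-fold between the arrays, so their differences are given as a description and carry no test. In that table they account for 5 of 1003 probe sets (1 for Ifi44, 1 for Iigp1 and 3 for Gvin1) and for 3 of the 791 genes with a symbol. The value table behind it holds 35556 probe sets.

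The samples were CD8 single-positive thymocytes, the thymic precursors of CD8 T cells, enriched by magnetic sorting from mice aged 8 weeks. One group was CIITAtgpIV-/-, on the B6 background, a name for mice that carry a CIITA transgene and lack promoter IV of the Ciita gene, and the promoter driving the transgene is not given in the sources used here. The other was B6 WT (wild type). Each group is 1 array of RNA pooled from 2 to 4 thymuses, so no difference has a replicate check, no p-value is given, and differences between mice cannot be told apart from differences between genotypes.

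Interferons act through cell-surface receptors and JAK-STAT signalling, and their target genes carry binding sites for STAT and IRF transcription factors. Iigp1, also called Irga6, belongs to the immunity-related GTPases, which load onto the vacuoles of intracellular pathogens in mouse cells. Gvin1 belongs to the very large inducible GTPases, whose cellular role is poorly known. Ifi44 is a cytoplasmic protein induced by type I interferon. CIITA is the transactivator of MHC class II genes, and promoter IV is the promoter through which interferon gamma induces Ciita and which thymic cortical epithelium uses. Type I interferon is also among the signals known to reach maturing thymocytes in the thymic medulla.

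All 5 probe sets had a higher signal in the CIITAtgpIV-/- array, by 1.08 to 1.82 on the log2 scale, which is 2.12-fold to 3.53-fold. Among the 28560 probe sets in the identifier range that the authors listed from, 0.977% were at least 2-fold higher and 2.54% at least 2-fold lower, and nothing is read from the members' count, since the table admits only probe sets past 2-fold. The robust standard deviation of the difference over that range (the scaled median absolute deviation) was 0.25, and its median was 0.03. That spread mixes measurement error with differences between mice and genotypes and is not the error of any single gene. All 10 member values lay above 5.42, which serves here as the expression floor and is the median, taken over every probe set, of its brighter array.

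**Figure D1:**
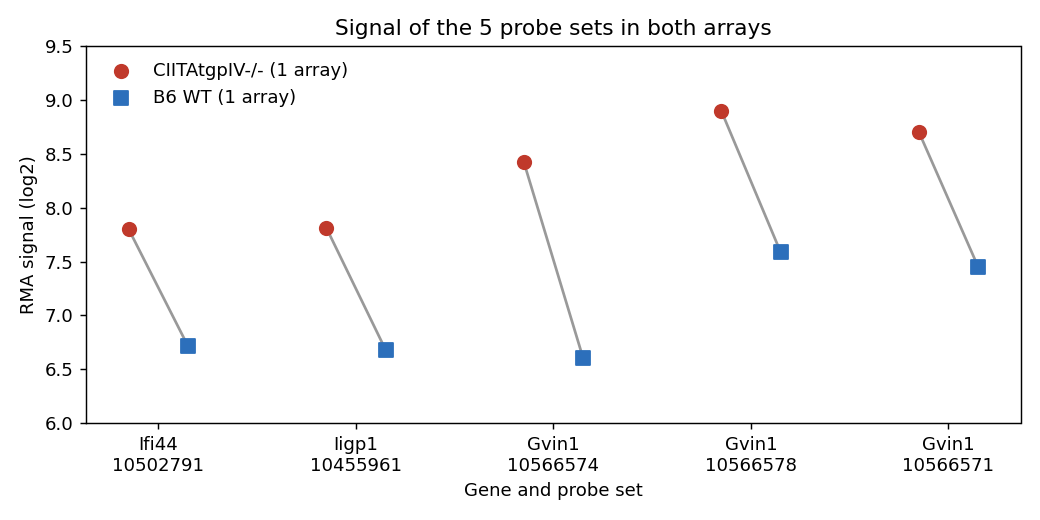
RMA signal on the log2 scale (vertical axis) of the 5 probe sets of Ifi44, Iigp1 and Gvin1 (horizontal axis), with circles for the CIITAtgpIV-/- array and squares for the B6 WT array, 1 array each. Every circle lies above its square, with the smallest difference for Ifi44, at 1.08, and the largest for the Gvin1 probe set 10566574, at 1.82.

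Ifi44 had a log2 signal of 7.80 in the CIITAtgpIV-/- array, against 6.71 in the B6 WT array. On the linear scale these are signals of 222 and 105, a 2.12-fold higher value in CIITAtgpIV-/-. All 25 probes of the set, 10502791, match the Ifi44 transcript in the file's annotation. The file places it on the minus strand of chromosome 3, from 151393888 to 151412813. No other probe set of the table lies within 1 Mb of it.

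Of the members, Ifi44 lay nearest to the table's threshold. The smallest positive difference listed was 1.003 and the largest positive one in the range that was not listed was 0.997, so the table ends where the fold reaches 2. Of the listed probe sets 55 lay less than 0.1 above the threshold, with Ifi44 among them, and 84 unlisted ones lay less than 0.1 below it. With each array centred on its own median, which subtracts 0.09 from every difference, Ifi44 differed by 0.99 and was no longer past 2-fold.

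The RefSeq promoter table of GRCm38.p6 holds Ifi44 and Gm1966, a gene of the Gvin1 cluster described further on, and these are shown because both genes had higher signal in the same array. Gvin1 was not matched in that table. Iigp1, also higher in that array, lies on a chromosome whose promoters were left out, so its promoter was not examined. Each line gives the 250 bases before the annotated start, read on the gene's own strand, with capitals marking every match to AANNGAAA, the core that IRF factors recognise, on either strand. Ifi44 lies on the minus strand at chr3:151749911-151750160 and Gm1966 on the minus strand at chr7:106644646-106644895.
Ifi44: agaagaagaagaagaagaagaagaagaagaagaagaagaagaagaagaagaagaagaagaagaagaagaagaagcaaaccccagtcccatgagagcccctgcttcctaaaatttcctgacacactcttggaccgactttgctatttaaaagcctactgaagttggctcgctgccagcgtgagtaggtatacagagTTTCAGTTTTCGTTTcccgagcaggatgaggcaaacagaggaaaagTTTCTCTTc
Gm1966: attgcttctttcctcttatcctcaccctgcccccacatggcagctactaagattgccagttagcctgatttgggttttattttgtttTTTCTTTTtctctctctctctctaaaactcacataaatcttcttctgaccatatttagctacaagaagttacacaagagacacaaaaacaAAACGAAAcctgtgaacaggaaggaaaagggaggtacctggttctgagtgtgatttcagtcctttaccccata

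Ifi44 held 3 matches. A pair of them, TTTCAGTT and TTTCGTTT, share 1 base and run from 55 to 41 bases before the start, and TTTCTCTT ends 2 bases before it. Gm1966 held 2 matches, from 163 to 156 and from 73 to 66 bases before the start. Of the 32851 promoters of that length outside chromosome 18, 21.3% held at least 1 match, 4.20% at least 2 and 0.849% at least 3. A match describes the letters only and does not show that a factor binds there.

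Gvin1 was measured by 3 probe sets, all higher in CIITAtgpIV-/-. Probe set 10566574 had a log2 signal of 8.42 in CIITAtgpIV-/-, against 6.61 in B6 WT, a 3.53-fold higher value. Probe set 10566578 had 8.90 in CIITAtgpIV-/-, against 7.59 in B6 WT, a 2.48-fold higher value. Probe set 10566571 had 8.70 in CIITAtgpIV-/-, against 7.45 in B6 WT, a 2.38-fold higher value. The probe sets shared their direction and differed in size, with a gap of 0.57 on the log2 scale between the largest and the smallest difference. Their mean difference was 1.46.

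These probe sets do not cover the same stretch of the genome. The one with the largest difference, 10566574, spans 113300049 to 113358854 on the minus strand of chromosome 7, and all 9 of its probes match the Gvin1 transcript in the file's annotation. Its span of 58806 bases equals the length of Gvin1 in the RefSeq table. Probe set 10566571 lies from 113219245 to 113222662, outside that span, and 15 of its 30 probes match the Gvin1 transcript. Its span of 3418 bases equals the length of Gm8979, a transcribed pseudogene that neighbours Gvin1 in the RefSeq table. Probe set 10566578 lies from 113466928 to 113469321, on the other side of Gvin1, and 14 of its 25 probes match the transcript. The very large GTPases are near copies of each other, so which copy gave the signal of the outer probe sets is uncertain. Only 10566574 rests on probes that all match Gvin1, though on the fewest. Whether its probes also match another copy was not tested. Gm4070, a protein-coding gene of chromosome 7 with a RefSeq length of 58850 bases, shares the synonym VLIG-1 with Gvin1.

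Gm4759 and Gm1966, on the list of very large inducible GTPases, lie beside Gvin1 and were also higher. Gm4759, which the file describes as a Gvin1 pseudogene, had a log2 signal of 9.66 in CIITAtgpIV-/-, against 8.50 in B6 WT, a 2.23-fold higher value. In its set 8 of 21 probes match the assigned transcript, so which copy gave this signal is uncertain too. Gm1966, which RefSeq annotates as protein-coding, had 9.02 in CIITAtgpIV-/-, against 7.47 in B6 WT, a 2.92-fold higher value. All 17 probes of its set match the assigned transcript, but the set spans 2793 bases, against a RefSeq length of 49098 for the gene. With the Gvin1 probe sets, 5 probe sets of 3 symbols on 528 kb of chromosome 7 differed by 1.16 to 1.82, all in the same direction. No other listed probe set lay within 1 Mb of Gvin1, and of the 60 listed on chromosome 7 there were 23 higher and 37 lower. As near copies, they are not counted as 5 separate observations.

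**Figure D2:**
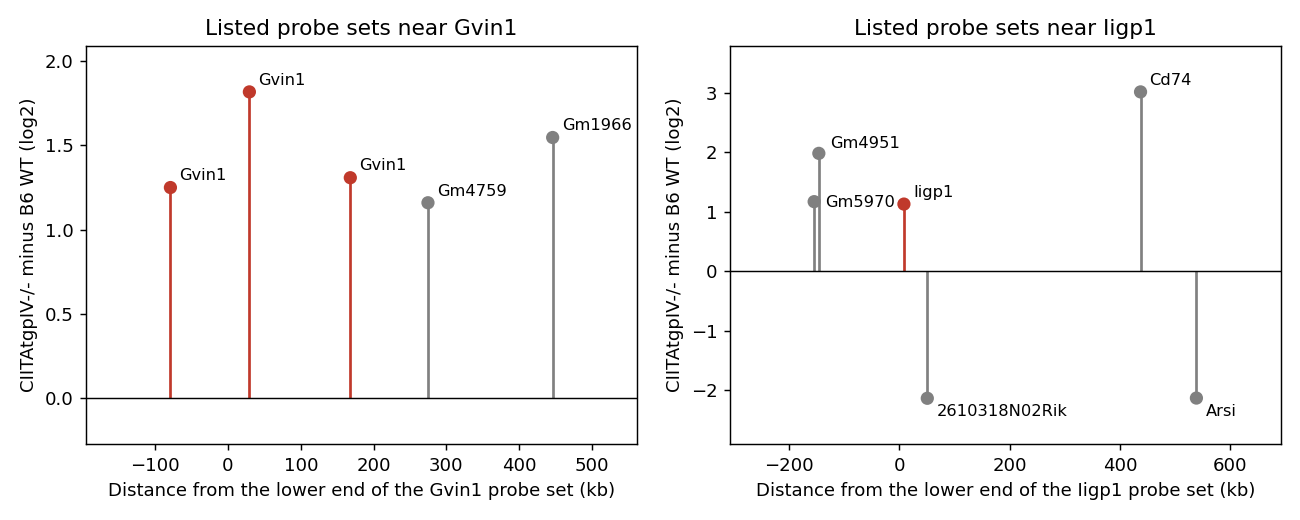
Difference on the log2 scale, CIITAtgpIV-/- minus B6 WT (vertical axis), of each listed probe set within 1 Mb of Gvin1 (left) and of Iigp1 (right), against the distance of its midpoint in kb from the lower end of the Gvin1 probe set 10566574 or of the Iigp1 probe set (horizontal axis). Red marks the named gene and grey its neighbours. All 5 probe sets near Gvin1 were higher, while of the 6 near Iigp1 there were 4 higher and 2 lower.

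Iigp1 had a log2 signal of 7.81 in the CIITAtgpIV-/- array, against 6.68 in the B6 WT array. The linear signals were 225 and 103, a 2.19-fold higher value in CIITAtgpIV-/-. All 27 probes of the set, 10455961, match its transcript. The file places it on the plus strand of chromosome 18, from 60535701 to 60552288.

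The neighbours of Iigp1 were looked up after their values were seen. Gm4951, which RefSeq also names Ifgga2 where Iigp1 is Ifgga1, lies 128 kb from Iigp1 and is thus another GTPase gene of the same family. It had a log2 signal of 6.86 in CIITAtgpIV-/-, against 4.88 in B6 WT, a 3.96-fold higher value whose lower level lay below the floor. Gm5970, a pseudogene in RefSeq, lies within the span of Gm4951 and had 4.60 in CIITAtgpIV-/-, against 3.42 in B6 WT, a 2.25-fold higher value with both levels below the floor.

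Other neighbours of Iigp1 went both ways. Cd74, the MHC class II invariant chain and a CIITA target, lies 411 kb from Iigp1 and was higher by 3.02 on the log2 scale. The difference of 2610318N02Rik, 33.7 kb away, was -2.13 on the log2 scale, and that of Arsi, an arylsulfatase gene, was also -2.13. The CIITAtgpIV-/- level of Arsi, 4.64, lay below the floor. Across chromosome 18 there were 11 listed probe sets higher and 17 lower.

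**Figure D3:**
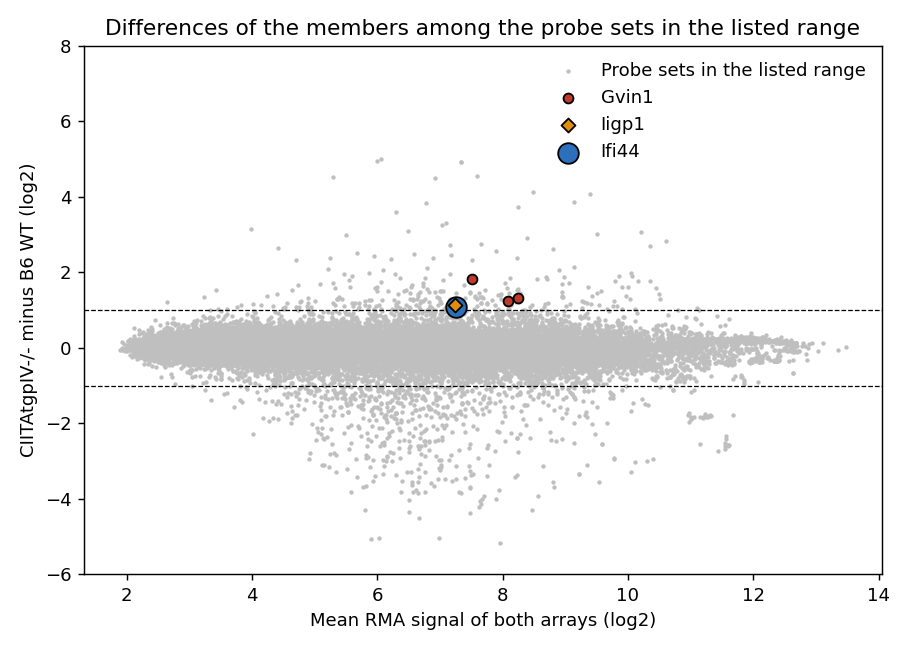
Difference on the log2 scale, CIITAtgpIV-/- minus B6 WT (vertical axis), against the mean RMA signal of both arrays on the log2 scale (horizontal axis) for the 28560 probe sets in the listed range (grey), with the 3 Gvin1 probe sets, Iigp1 and Ifi44 in colour and dashed lines at 2-fold. The points of Iigp1 (diamond) and Ifi44 (large circle) nearly coincide. The members lie just above the upper line, with the Gvin1 probe set at 1.82 farthest from it.

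Few other interferon genes were listed. Over 9 lists of interferon genes and GTPase families with 121 genes in all, the members included, 6 were listed as higher and 2 as lower, with a median of 1.13 on the log2 scale. Without the 3 members, 3 of 118 were higher (2.54%) and 2 lower (1.69%), with a median of 1.12. The higher ones were Ly6a and the near copies Gm1966 and Gm4759 beside Gvin1, and the copies are not separate from that member. The lower ones were Ifi205 and Ifngr2. Over the probe sets in the listed range 0.977% were higher and 2.54% lower, and with counts this small nothing is read from the difference. For comparison, 27.3% of all 791 listed genes were higher, with a median of -1.29. A gene that is not listed differed by less than 2-fold if its probe sets lie in the listed range and carry its symbol, and its level is otherwise not named in the files used here.

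By family, Iigp1 was the listed one of the 10 immunity-related GTPases on the list, which does not hold Gm4951. None of the 12 guanylate-binding proteins, which are interferon gamma-induced GTPases of host defence, and neither of the 2 Mx GTPases was listed. Of 11 very large GTPase symbols, 8 of which are in the RefSeq table, Gvin1, Gm4759 and Gm1966 were listed. Ifi44l, the paralogue of Ifi44, was not. None of the 40 genes of the type I interferon response was listed, Isg15, Ifit1 and Irf7 included, nor was any of the 15 interferon gamma chemokine and antigen-processing genes.

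Ly6a, an interferon-inducible surface protein also known as Sca-1, had a log2 signal of 10.1 in CIITAtgpIV-/-, against 8.97 in B6 WT, a 2.18-fold higher value. Ifi205, of the p200 family of nucleic acid-binding interferon proteins, had 3.01 in CIITAtgpIV-/-, against 4.20 in B6 WT, and both lay below the floor. Among 19 interferons, receptors and signalling genes, Ifngr2, the signalling chain of the interferon gamma receptor, was the listed one. Ifnz, an interferon gene, and Irf5 are not on that list but were in the authors' table. Ifnz was 2.14-fold higher and Irf5 2.16-fold lower, with the CIITAtgpIV-/- level of Irf5 below the floor. Ifngr2 had 7.80 in CIITAtgpIV-/-, against 9.16 in B6 WT, a difference of -1.36 on the log2 scale, which makes it 2.57-fold lower. Ifnar1 and Ifng were among the 18 that were not listed.

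**Figure D4:**
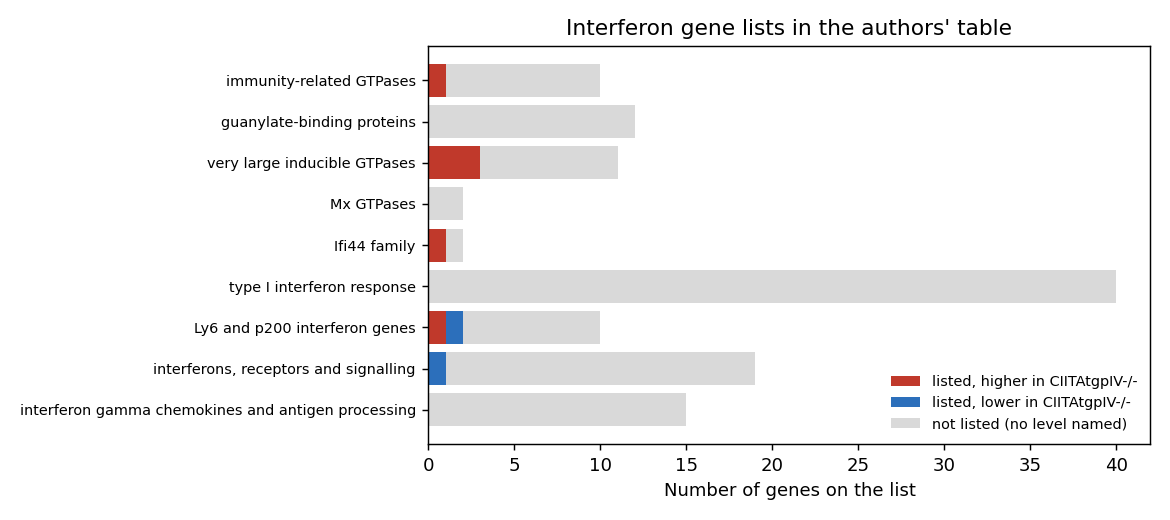
Number of genes (horizontal axis) on each of 9 interferon and GTPase lists (vertical axis) that the authors' table lists as higher in CIITAtgpIV-/- (red), lists as lower (blue) or does not list (grey). The very large inducible GTPases have the most listed members, 3 of 11, and the 40 genes of the type I interferon response have none.

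Iigp1 and Gvin1 share the annotation GTP binding in the file, which gives Ifi44 none of molecular function. Of the 14 listed genes with that annotation, 8 were higher and 6 lower, while 27.3% of all 791 listed genes were higher. With counts this small nothing is read from the difference. Beside Iigp1 and Gvin1, the higher ones included Dock9, a guanine nucleotide exchange factor, at 1.96, and Arl4d, a small GTPase, at 1.12 on the log2 scale. The lower ones included the tubulin genes Tubb2b, at -2.97 by probe set 10408613 and -1.49 by 10399419, and Tubb3, at -1.20. Rasl11b, at -1.82, and the small GTPase Ralb, at -1.22, were lower too.

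The pairs of signals of Ifi44 and Iigp1 lay 0.036 apart, by Euclidean distance on the log2 scale over the 2 arrays. For each member probe set, the 3 nearest listed genes other than the members were also found. For Ifi44 they were Dnaja4, a heat-shock cochaperone, at a distance of 0.078, Chd7, a chromatin remodeller, at 0.10, and Nr1d2, a nuclear receptor of the circadian clock, at 0.12. For Iigp1 they were the adenosine receptor gene Adora2a, at 0.087, Nr1d2, at 0.098, and Dnaja4, at 0.11. For Gvin1 they were Baiap3, Snhg1 and Ppp1r15a by probe set 10566574 (0.21 to 0.27), Tnfsf10, Jun and Hsd11b1 by 10566578 (0.067 to 0.083), and Chd7, Peak1 and Kdm7a by 10566571 (0.063 to 0.084). Chd7 was named by different probe sets, with 7.83 in CIITAtgpIV-/- and 6.81 in B6 WT near Ifi44. Near 10566571 its values were 8.66 in CIITAtgpIV-/- and 7.41 in B6 WT. Over 2 arrays a small distance means only similar values.

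Markers of other cells differed between the same arrays. As a reference, 2.54% of the 28560 probe sets in the listed range fell at least 2-fold lower in CIITAtgpIV-/-. By gene, the authors' table holds 575 with a lower signal and 216 with a higher one, so a lower value was the more common direction. Of 10 genes of double-positive thymocytes, the immature stage before, 9 were listed, each of them lower in CIITAtgpIV-/-. Their summed linear signal was 257 in CIITAtgpIV-/- and 4378 in B6 WT. All of them except Ptcra lay below the floor in CIITAtgpIV-/-, and Rag2 did so in both arrays. The 4 listed of 15 myeloid and dendritic genes summed to 51.9 in CIITAtgpIV-/- and 229 in B6 WT. All 4 lay below the floor in CIITAtgpIV-/-, and Itgax and Cybb did so in both arrays. The 4 listed of 10 red cell genes summed to 144 in CIITAtgpIV-/- and 1435 in B6 WT, again with every listed member lower in CIITAtgpIV-/-. Of these, Hbb-b1 and Hbb-bt lay below the floor in CIITAtgpIV-/-. Of 10 B cell genes, Jchain was listed, with linear signals of 10.6 in CIITAtgpIV-/- and 38.4 in B6 WT, both below the floor.

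None of the 10 CD8 T cell, 12 NK cell and 9 thymic epithelial markers was listed, so the sorted population could not be checked against Cd8a here. No listed marker had a signal of 0, because RMA gives every probe set a positive value. The part of these populations in the levels of Ifi44, Iigp1 and Gvin1 was not tested. In pooled RNA, a change in the share of cells that carry a transcript and a change in its amount per cell cannot be told apart.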

How the data were processed

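For 1 array of each group, the authors deposited log2 signals of 35556 probe sets. GCOS and RMA (background correction, normalization between arrays and a log2 summary of probes) are named in the submitters' processing notes. Expression Console 1.1, the affy package 2.9.2 and limits of 10% on the false discovery rate and 2 on the fold are named in the series' design text. All probe sets at least 2-fold apart in the listed range, 279 higher and 724 lower, were listed. The false discovery rate limit thus removed none of them, and 1 array per group gives no replicates to estimate such a rate. The array type is not given in the sources used here. The authors' deposited table also gives a log2 ratio, which equals CIITAtgpIV-/- minus B6 WT of the value table for all 1003 probe sets within 1e-06. It holds 2 signal columns whose names match no sample label, and these were not used. RMA compresses differences of dim probe sets.

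Build: 34 of the table's transcript descriptions state an NCBIM37 interval, and 30 overlap the probe set's own position, so positions are given as in the file and read as NCBIM37. Promoter positions alone are GRCm38.p6, from RefSeq.

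Differences, counts, lists and neighbours were computed in Python 3.11.15 with numpy 2.4.6, pandas 2.3.3 and statsmodels 0.14.6, with lowess at a span of 0.3, and the normalizations were tested on simulated data. Each probe set was kept apart, and list counts took each gene's brightest probe set. Symbols were updated through RefSeq. Named genes were the members, listed genes of the lists and the 3 nearest genes of each member probe set. Members and lists were chosen with earlier results of these data known. The number of arrays limits the precision.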

Additional observations from a re-analysis of the deposited data

How the results depend on the processing

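The members stayed higher in CIITAtgpIV-/- under each alternative run (median centring, quantile normalization over all probe sets, lowess, and quantile normalization within the listed range, the last chosen after seeing the data), with differences from 0.99 to 1.89. Of these 20 values 19 stayed past 2-fold, the exception being Ifi44 under median centring. This is a weak check, since the members were listed for a 2-fold difference. The Gvin1 probe set 10566574 moved to 1.46 when the Gvin1 probe sets were averaged, and the gap between them was 0.54 under quantile normalization. The count of probe sets that were higher was 914 at 1.5-fold, 85 at 3-fold and 160 with the floor at the 75th percentile, against 279 at 2-fold without a floor. The count of lower ones was 1615, 346 and 422 under the same settings, against 724. Over the interferon lists, 0 genes were higher and 0 lower at 3-fold by their brightest probe sets, and 1 was lower past the floor. Gm4951, 3.96-fold higher, is on none of these lists, and the Gvin1 probe set 10566574, 3.53-fold higher, is not the brightest of its gene. No paired analysis was possible because there is a single array per genotype, and for that reason no sample could be left out. For values below the floor, such as those of Gm5970 and Ifi205, signal over background limits the fold.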

Other observations

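Further listed genes whose description names interferon were looked up after their values were seen. Ifnz, which encodes interferon zeta, a type I interferon of mice, had a log2 signal of 6.85 in CIITAtgpIV-/- and 5.75 in B6 WT, a 2.14-fold higher value. Irf5, a transcription factor of myeloid and B cells that drives cytokine genes, had 4.51 in CIITAtgpIV-/- and 5.62 in B6 WT. This is a difference of -1.11 on the log2 scale, with the CIITAtgpIV-/- level below the floor.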
